A study of Mus musculus with 18 samples.

Results

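Regulatory T cells (Tregs) that lack CD25 were compared with CD25-sufficient Tregs for 9 genes that are used to tell central Tregs (cTregs) from effector Tregs (eTregs) or that are related to such genes: *Cd44*, *Klrg1*, *Igfbp4*, *Igf2r*, *Cd72*, *Ly6a*, *Ly6c1*, *Ly6c2* and *Ly6e*. The 9 genes were picked by symbol from the 50600 gene rows of an RNA-seq count table. *Igfbp4* and *Ly6a* were picked for their pattern in these samples, so their values are described without a test. *Cd44*, *Klrg1*, *Igfbp4*, *Igf2r*, *Cd72* and *Ly6c1* also stand in a panel that the study selected on the splenic comparison of these samples, so their splenic differences are a description as well. What remained to test was the thymic comparison and the comparison of WT organs for 7 genes, and the splenic comparison for *Ly6c2* and *Ly6e*. The thymic samples were Foxp3+ Tregs sorted from C57BL/6 mice of 3 to 4 weeks, with 5 WT and 5 CD25 KO samples. The thymic WT samples came from Foxp3/RFP reporter mice, and the thymic KO samples from "cured" CD25cKO mice (CD25flox/Foxp3-YFP/Cre), which had received WT splenocytes intravenously as neonates. The splenic samples, 4 WT and 4 KO, were YFP+ Tregs of C57BL/6 mice, from reporter controls and from CD25flox/Foxp3eGFP-Cre-ERT2/R26Y mice, given tamoxifen at 7 to 10 weeks and collected 10 to 14 days later. Cre was driven from the *Foxp3* locus in both KO models, so deletion was limited to Foxp3-expressing cells, and the thymic WT and KO samples carried different reporter alleles. Organ therefore cannot be told apart from age, mouse model, reporter, tamoxifen or the date in the column names of the count table, which differs between the organs. Within the thymus, loss of CD25 cannot be told apart from the reporter allele or from the neonatal transfer of splenocytes, which is described for the KO mice only. The study describes each sample as coming from its own mouse.

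CD25, encoded by *Il2ra*, is the alpha chain of the IL-2 receptor and raises the affinity of the receptor for IL-2, which signals through STAT5 to support Treg survival and function. Resting cTregs recirculate through lymphoid organs and express lymph node homing molecules, whereas eTregs have responded to antigen, carry activation molecules and home to tissues. CD44, a receptor for hyaluronan, and KLRG1, an inhibitory receptor for cadherins, are raised on activated or terminally differentiated T cells. Ly-6C, encoded by *Ly6c1* and *Ly6c2*, is a glycosylphosphatidylinositol-anchored protein used as a marker of resting Tregs. *Ly6a* encodes the stem cell antigen Sca-1 and *Ly6e* a further protein of the same anchored family, and several genes of this family respond to interferon. IGFBP4 is a secreted protein that binds insulin-like growth factors (IGF), so it is not a surface molecule. IGF2R is the cation-independent mannose-6-phosphate receptor, which carries lysosomal enzymes and takes up IGF2, and CD72 is a coreceptor best known from B cells.

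The 4 *Ly6* genes lie together on mouse chromosome 15, and 3 of them are near copies of each other, which decides how well their counts can be kept apart. In GRCm38 with GENCODE M21 annotation, *Ly6e* lies on the forward strand at chr15:74955051-74959905. *Ly6a* (chr15:74994877-74998031), *Ly6c1* (chr15:75044018-75048830) and *Ly6c2* (chr15:75108158-75111970) lie on the reverse strand, with their lowest coordinates 39.8, 89.0 and 153 kb from that of *Ly6e*. The first 120 coding bases of the principal transcripts are shown 5′ to 3′ because they carry the likeness between the 3 reverse-strand genes. Capitals mark the 6 bases that differ between *Ly6c1* and *Ly6c2* in their 2 lines, and the 8 bases that differ from *Ly6c1* in the *Ly6a* line.

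Ly6c1: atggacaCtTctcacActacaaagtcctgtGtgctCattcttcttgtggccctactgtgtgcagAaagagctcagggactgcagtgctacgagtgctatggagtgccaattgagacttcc
Ly6c2: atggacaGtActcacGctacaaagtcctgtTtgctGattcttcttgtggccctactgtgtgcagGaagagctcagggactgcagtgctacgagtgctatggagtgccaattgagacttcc
Ly6a: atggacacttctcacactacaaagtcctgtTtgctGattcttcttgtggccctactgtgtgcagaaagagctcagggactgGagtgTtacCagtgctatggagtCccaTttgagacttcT

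Over the whole coding sequence *Ly6c1* and *Ly6c2* were 97.7% identical in bases and 94.7% in residues, both being 396 bases long. *Ly6a* was 82.0% identical to *Ly6c1* and 81.7% to *Ly6c2* in bases, and *Ly6e* 50.1% to 53.1% to the other members of the cluster. Of all stretches of 75 bases, the read length, in the protein-coding transcripts of *Ly6c2*, 20.7% also occurred in *Ly6c1*, and of those of *Ly6c1* 19.05% occurred in *Ly6c2* or *Ly6a*. The share was 6.33% for *Ly6a*, in *Ly6c1* or *Ly6i*, and 0 for *Ly6e*. How reads that match several genes were counted is not given in the sources used here, so the split of counts between *Ly6c1* and *Ly6c2* is uncertain.

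The other members lie apart from each other. *Cd44* lies at chr2:102811141-102901665 and *Klrg1* at chr6:122270596-122282882, both on the reverse strand. *Igfbp4* lies at chr11:99041244-99054392 on the forward strand, and *Igf2r* at chr17:12682406-12769664 on the reverse strand, where the *Airn* gene overlaps it without sharing an exonic base. *Cd72*, on the reverse strand at chr4:43446462-43454628, overlaps exons of *Tesk1* on the opposite strand over 1423 bases, and 45.2% of the 75-base stretches of its protein-coding transcripts also occur in those of *Tesk1*. Whether the counting used strand is not given in the sources used here, so *Cd72* and *Tesk1* reads may not have been told apart. *Tesk1* itself had a log2 fold change of -0.09 in the thymic and -0.28 ± 0.09 (SE) in the splenic KO.

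Library totals ran from 17239774 to 23993674 counts in the thymus and from 25258341 to 32639570 in the spleen, so that 3 counts corresponded to 0.0949 to 0.163 CPM (counts scaled to the size of each library). *Il2ra*, the targeted gene, was 613 ± 73.1 CPM (SD, n = 5) in thymic WT and 524 ± 23.9 CPM (n = 4) in splenic WT samples. It was 168 to 208 CPM in the splenic KO samples and 105, 279.7, 96.1, 234 and 95.8 CPM in thymic KO samples 1 to 5, so samples 2 and 4 held more *Il2ra* than the other 3. A count over the whole gene also takes reads from exons that Cre does not remove. *Foxp3* was present in every library, at 204 to 577 CPM. The summed B cell markers were lower in thymic KO than in WT samples without overlap (92.1 to 141 against 144 to 199 CPM), as were the T cell and Treg markers, which include *Il2ra* (5009 to 5563 against 5566 to 6374 CPM). In the thymus the ranges of the myeloid (35.4 to 67.0 CPM in WT and 30.5 to 46.7 in KO), NK and CD8 T cell (38.5 to 76.4 and 36.5 to 50.1), immature thymocyte (92.9 to 257 and 111 to 180), dendritic and stromal (229.6 to 254 and 229 to 299) and erythroid (13.8 to 35.3 and 8.66 to 44.8) sums overlapped. In the spleen the B cell, myeloid and NK and CD8 T cell sums were higher in KO samples without overlap, with the values given beside *Cd72*, *Ly6c2* and *Klrg1*. The T cell and Treg sum was 5849 to 5935 CPM in splenic WT and 6027 to 6631 in KO samples, and the dendritic and stromal sum 205.5 to 220.5 and 169 to 195, where *Pecam1*, the most abundant of these markers, was at -0.37 ± 0.06 on the log2 scale and the other 4 tested were above 0. The immature thymocyte (52.0 to 60.4 and 56.3 to 59.5 CPM) and erythroid (5.35 to 7.32 and 5.30 to 7.62) sums overlapped in the spleen. In sorted bulk samples, fewer cells of one kind and less RNA per cell cannot be told apart.

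**Figure D1:**
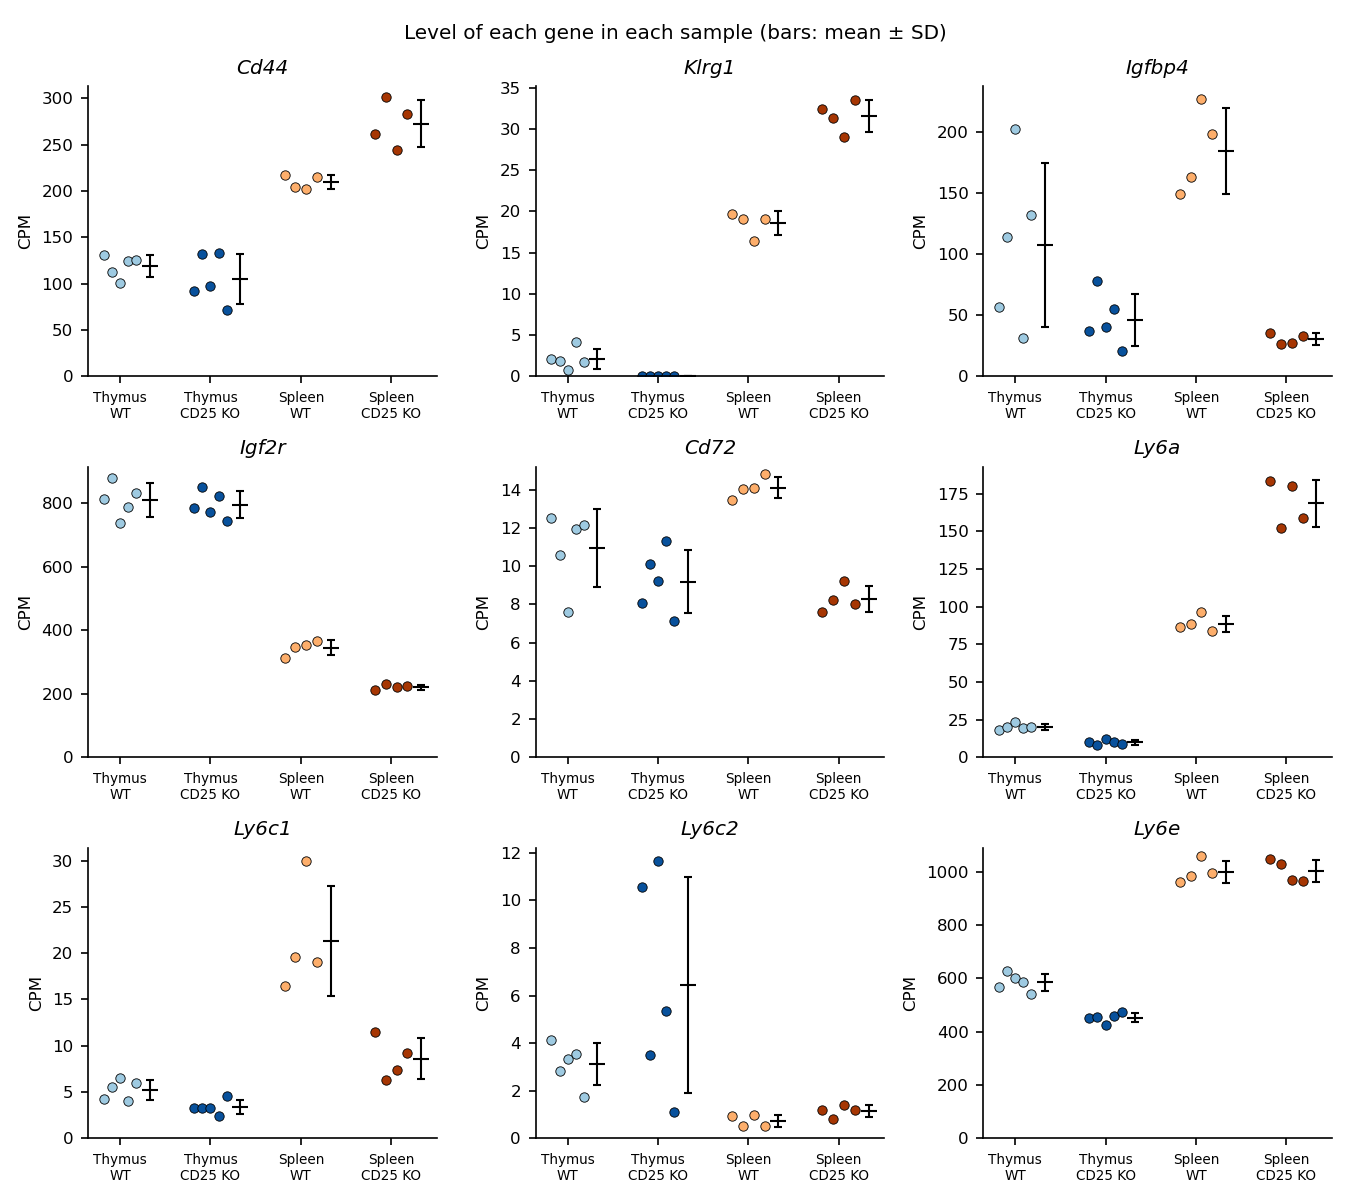
Level of each of the 9 genes in CPM, on linear axes that start at 0, with a point for each sample (5 thymic WT, 5 thymic CD25 KO, 4 splenic WT and 4 splenic CD25 KO) and bars for the mean ± SD. *Klrg1* lies at or near 0 in all 5 thymic KO samples, *Igfbp4* is spread widely in thymic WT and narrowly in splenic KO samples, and *Ly6a* is lower in thymic and higher in splenic KO samples than in WT samples of the same organ.

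*Cd44* was above its WT level in splenic KO Tregs and did not differ in the thymus beyond the spread between samples. In the spleen it was 217, 204, 203 and 215 CPM in WT and 262, 302, 244 and 283 CPM in KO samples. Each splenic KO sample lay above each splenic WT sample, with a mean 1.30-fold higher (log2 fold change 0.38 ± 0.06, SE). Thymic levels were 131, 113, 101, 124 and 125.6 CPM in WT and 91.8, 132, 97.3, 133 and 71.1 CPM in KO samples. The thymic groups overlapped, with KO samples 2 and 4, those with more *Il2ra*, the highest and KO samples 1, 3 and 5 the lowest. The thymic log2 fold change was -0.16 ± 0.15 (edgeR adjusted p = 0.459). It was -0.05 without KO sample 5, -0.26 without KO sample 2 or KO sample 4, and -0.45 without both of these (adjusted p = 0.0141), still short of the 0.01 threshold.

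*Klrg1* was almost undetected in thymic KO Tregs and stood above WT in splenic KO Tregs. In the thymus it had 44, 44, 18, 91 and 40 counts in WT samples, or 2.13, 1.87, 0.808, 4.16 and 1.71 CPM. Of the KO samples, only sample 2 had a count, of 1 (0.0461 CPM), and the other 4 had 0. *Klrg1* was thus lower in the thymic KO samples (edgeR adjusted p = 0.000281), and all WT samples lay above all KO samples. It passed the filter on low counts only through the WT samples, so a call here could only be a lower one. The summed 237 WT counts against 1 KO count, out of 111357532 and 96817842 counts, gave a ratio of 215 (95% exact interval 38.2 to 8523, counting error only). Splenic levels were 19.7, 19.1, 16.4 and 19.1 CPM in WT and 32.4, 31.3, 29.0 and 33.5 CPM in KO samples. The splenic groups did not overlap and the KO mean was 1.70-fold higher (0.77 ± 0.08). The NK and CD8 T cell marker sum was also higher in splenic KO (51.3 to 69.0 CPM) than in WT samples (24.2 to 28.6), with *Nkg7* higher by 1.64 ± 0.13 and *Klrb1c* by 1.90 ± 0.39 on the log2 scale. *Ncr1*, which defines NK cells, had 0 counts in every splenic library. The part of such cells in the splenic *Klrg1* level was not tested.

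*Igfbp4* had the widest splenic gap between genotypes of the 9 genes, and was picked for its pattern. It was 149.5, 163, 227 and 198 CPM in splenic WT samples and 35.8, 26.5, 27.0 and 32.9 CPM in splenic KO samples. The lowest WT sample lay far above the highest KO sample, with a mean 6.02-fold lower in KO (log2 fold change -2.59 ± 0.12). Thymic levels were 56.6, 114, 203, 31.5 and 132 CPM in WT and 37.0, 77.7, 40.7, 55.0 and 20.5 CPM in KO samples. The thymic groups overlapped, since WT sample 4 lay below 4 of the 5 KO samples, and the log2 fold change was -1.20 ± 0.44.

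*Igf2r*, which encodes the other protein here that binds an insulin-like growth factor, was lower in splenic but not measurably different in thymic KO Tregs. It was 312, 346, 354 and 367 CPM in splenic WT and 211, 229.8, 220.0 and 224 CPM in splenic KO samples. The splenic groups did not overlap, and the KO mean was 1.56-fold lower (-0.64 ± 0.06). Thymic levels were 814, 881, 737, 789.7 and 834 CPM in WT and 785, 851, 771, 824 and 745 CPM in KO samples. The thymic groups lay over each other, with a log2 fold change of -0.01 ± 0.06 (edgeR adjusted p = 0.909) and an interval of ±2 SE from -0.13 to 0.12. Its sign turned under another scaling.

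*Cd72* resembled *Igf2r* in being lower in the splenic KO. It was 13.5, 14.0, 14.1 and 14.8 CPM in splenic WT and 7.60, 8.26, 9.25 and 8.04 CPM in splenic KO samples. These groups did not overlap, with a KO mean 1.70-fold lower (-0.77 ± 0.09), a wider gap than that of the overlapping gene *Tesk1*. Thymic *Cd72* was 12.5, 10.6, 7.58, 12.0 and 12.2 CPM in WT and 8.10, 10.1, 9.25, 11.3 and 7.14 CPM in KO samples. The thymic difference of -0.24 ± 0.16 did not pass the test (edgeR adjusted p = 0.297; interval -0.55 to 0.08). B cell markers moved the other way in the spleen, their sum being 519 to 627 CPM in WT and 698 to 827 CPM in KO samples, with *Ighm* at 0.44 ± 0.08 and *Cd22* at 0.94 ± 0.14 on the log2 scale. In the thymus their sum was lower in KO samples, and *Ighm* was at -0.82 ± 0.08. The part of B cell RNA in the *Cd72* level was not tested.

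*Ly6a* stood on opposite sides of WT in the 2 organs, the pattern for which it was picked. It was 18.4, 20.1, 23.2, 19.4 and 19.8 CPM in thymic WT samples and 9.99, 8.11, 12.4, 10.1 and 8.56 CPM in thymic KO samples. Every thymic KO sample lay below every WT sample, with a mean 2.03-fold lower (log2 fold change -1.02 ± 0.11). In the spleen it was 86.7, 88.2, 96.3 and 83.8 CPM in WT and 183, 152, 180.1 and 159 CPM in KO samples. Every splenic KO sample lay above every WT sample, with a mean 1.90-fold higher (0.93 ± 0.07).

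*Ly6e*, the most abundant of the 4 *Ly6* genes, was lower in thymic KO than in WT samples and was level in the spleen. It was 568, 627, 602, 587 and 543 CPM in thymic WT and 451, 454, 426, 458 and 474 CPM in thymic KO samples. The thymic groups did not overlap, and the mean was 1.28-fold lower in KO (-0.35 ± 0.05, edgeR adjusted p = 0.00205). With the trend of fold change on GC content removed it was -0.22 (adjusted p = 0.0276), past the threshold no longer. Splenic levels were 960.1, 984, 1058 and 994 CPM in WT and 1047, 1031, 969 and 966 CPM in KO samples. The splenic groups overlapped, with a difference of 0.01 ± 0.05 (adjusted p = 0.944; interval -0.10 to 0.11) whose sign turned under upper-quartile scaling. The KO effect differed between the organs by 0.38 ± 0.08, spleen minus thymus (edgeR adjusted p = 0.00222), and by 0.29 with the GC trend removed (adjusted p = 0.0131).

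*Ly6c1* was lower in splenic KO Tregs, and its thymic difference missed the threshold. It was 16.5, 19.6, 30.0 and 19.1 CPM in splenic WT and 11.5, 6.35, 7.39 and 9.24 CPM in splenic KO samples. Each splenic KO sample lay below each WT sample, with a mean 2.46-fold lower (-1.30 ± 0.18). In the thymus it was 4.26, 5.56, 6.46, 4.02 and 6.02 CPM in WT and 3.25, 3.22, 3.32, 2.43 and 4.57 CPM in KO samples. Only KO sample 5 reached into the WT range, and the difference was -0.64 ± 0.18 (edgeR adjusted p = 0.0284), which DESeq2 put past the threshold (adjusted p = 0.00823).

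*Ly6c2*, whose coding sequence differs from that of *Ly6c1* in few bases, had higher means in KO samples of both organs, and neither difference passed the test. In the thymus it was 4.12, 2.85, 3.32, 3.56 and 1.75 CPM in WT and 10.5, 3.50, 11.6, 5.36 and 1.10 CPM in KO samples. The thymic KO samples lay both above and below the WT range, and the log2 fold change was 1.05 ± 0.47 (edgeR adjusted p = 0.122). In the spleen it was 0.930, 0.513, 0.985 and 0.512 CPM in WT and 1.18, 0.8292, 1.40 and 1.20 CPM in KO samples. These values rest on 13 to 24 counts in a WT and 23 to 38 counts in a KO library, the groups overlapped, and the difference was 0.66 ± 0.28 (adjusted p = 0.127; interval 0.10 to 1.22). The difference between organs was -0.39 ± 0.69 (adjusted p = 0.739), with an interval from -1.77 to 1.00 that leaves a large difference either way within reach. Monocytes express *Ly6c2*, and the myeloid marker sum was 46.4 to 49.2 CPM in splenic WT and 55.1 to 59.8 CPM in splenic KO samples, with *Lyz2* at 1.03 ± 0.19 on the log2 scale. *Lyz2* was the 1 called gene among 8 tested myeloid markers, of which 4 had a positive and 4 a negative log2 fold change, *Adgre1* being the lowest (-0.82 ± 0.37), with a median of -0.09. In thymic KO samples 1 to 5 the dendritic and stromal sum was 299, 229, 282, 243 and 238 CPM. *Pecam1* held 198 to 233 CPM of it. Samples 1 and 3 were thus the highest for this sum and for *Ly6c2*. The dendritic marker *Siglech* ran from 1.68 to 32.8 CPM in thymic KO and from 3.50 to 21.7 CPM in thymic WT samples. It was at most 0.158 CPM in the splenic samples. The part of monocytes or dendritic cells in the *Ly6c2* level was not tested.

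**Figure D2:**
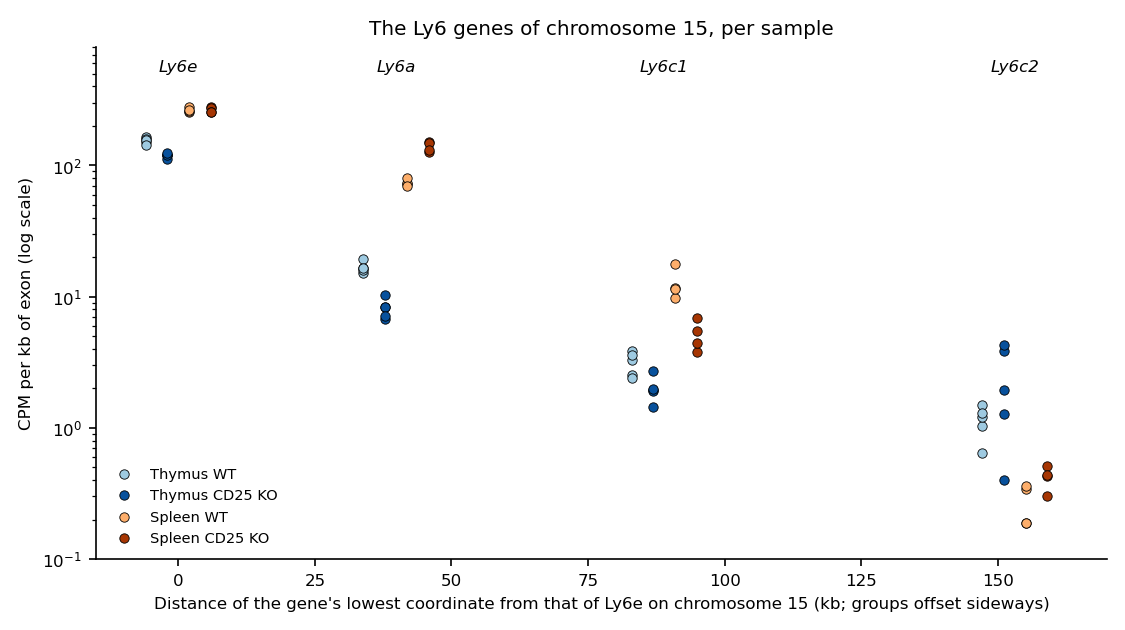
Level of the 4 *Ly6* genes per kb of exon (CPM per kb, log axis), with a point for each sample, against the distance of each gene from *Ly6e* in kb, the groups being offset sideways. *Ly6e* is the highest in every group, *Ly6a* is the gene that comes closest to it in splenic KO samples, and *Ly6c2* is spread over 10.6-fold among thymic KO samples.

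Per kb of exon, the make-up of the *Ly6* cluster differed with organ and genotype. The level of each gene was divided by all its annotated exons, 3.784 kb for *Ly6e*, 1.205 for *Ly6a*, 1.677 for *Ly6c1* and 2.74 for *Ly6c2*. The shares depend on these lengths, and which transcripts the cells used was not determined. *Ly6e* took 88.0% ± 0.905 (SD) of the summed level of the 4 genes in thymic WT, 90.5% ± 2.21 in thymic KO, 75.3% ± 0.987 in splenic WT and 64.6% ± 2.27 in splenic KO samples. *Ly6a* took 9.53% ± 0.687, 6.19% ± 1.13, 21.0% ± 0.531 and 34.0% ± 2.14 in the same order. These 2 genes held nearly all of the sum, so by arithmetic the share of one is high where that of the other is low. The ratio of *Ly6c1* to *Ly6c2* counts was 17.8 to 38.3 in splenic WT and 5.27 to 9.74 in splenic KO samples, without overlap. In the thymus it was 1.04 to 3.44 in WT and 0.285 to 4.14 in KO samples. Both genes summed gave 17.4 to 31.0 CPM in splenic WT and 7.17 to 12.7 CPM in splenic KO samples, a gap that does not depend on how reads were split between them. The sum still depends on whether reads that match several genes were counted. Of the 75-base stretches of *Ly6c1*, 77 also occur in *Ly6a*. The thymic sums, 7.58 to 9.78 CPM in WT and 5.67 to 14.97 CPM in KO samples, overlapped.

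**Figure D3:**
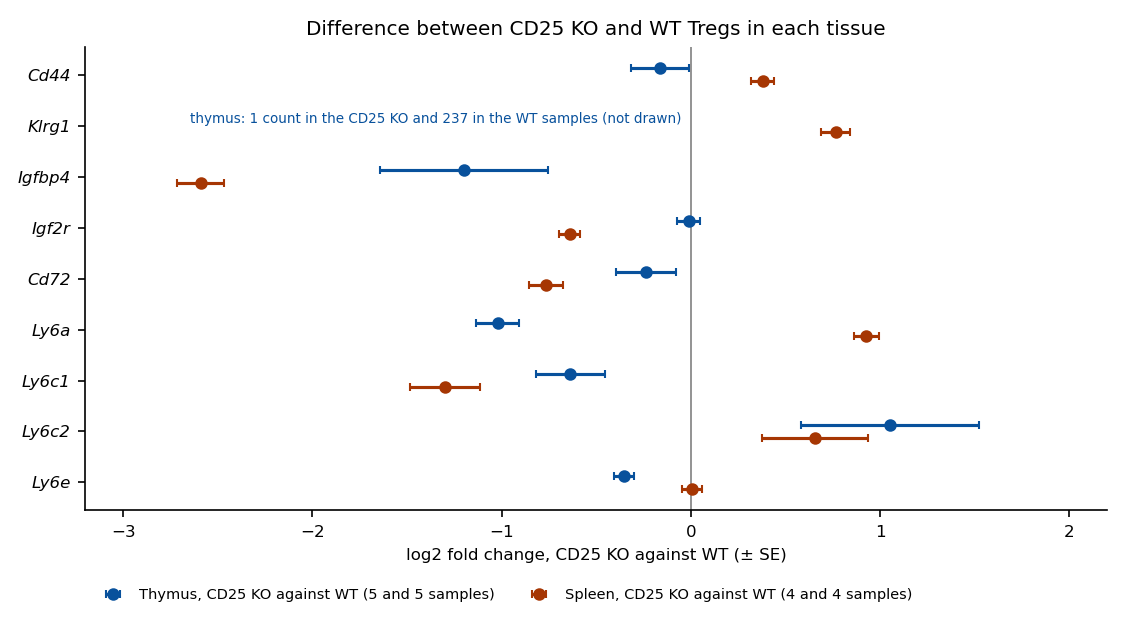
Log2 fold change of each gene between CD25 KO and WT Tregs in the thymus (5 and 5 samples) and the spleen (4 and 4 samples), with bars for ± SE and the line at 0 for no difference. Thymic *Klrg1*, with 1 count in the KO and 237 in the WT samples, is not drawn because a fold change fitted to so few counts depends on the prior count. *Ly6a* lies near -1 in the thymus and near 1 in the spleen, and *Igfbp4*, *Ly6c1* and *Cd72* lie below 0 in both.

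Of the 7 members tested in the thymus, 2 were called, *Klrg1* and *Ly6e*, and both were lower in KO. *Klrg1* passed the filter on low counts only through its WT samples. Among the 16986 genes tested in the thymus, 2.99% were called lower and 3.17% higher at FDR < 0.01. These 1047 calls became 371 without KO sample 3, 380 without WT sample 2, 401 without WT sample 3, 406 without KO sample 1 and 428 without WT sample 5. The groups did not overlap for 3 of the 9 members there, *Klrg1*, *Ly6a* and *Ly6e*, against 16.4% of all genes tested. *Ly6a* was picked for its pattern and *Klrg1* could only be lower, so this count was in part fixed in advance. In the spleen 0 of the 2 tested members was called by edgeR or by DESeq2, and 1, *Ly6c2*, had an unadjusted p below 0.05 (0.0330), where 3.55% of 17463 genes were called lower and 5.90% higher (1651 in all, and 1099 without WT sample 3). For 7 of the 9 members the splenic groups did not overlap, 4 of them lower in KO (*Igfbp4*, *Igf2r*, *Cd72*, *Ly6c1*) and 3 higher (*Cd44*, *Klrg1*, *Ly6a*), against 20.4% of all genes, a count fixed in large part by how the members were chosen. Of the 2 members tested for a difference of the KO effect between organs, 1 was called, *Ly6e*, where 6.98% of 18686 genes were called in either direction (1305 in all, and 817 without splenic KO sample 2). Over all genes tested, the median log2 fold change was -0.0022 (thymus) and -0.0065 (spleen).

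Within WT Tregs, 6 of the 7 tested members differed between the organs, 4 being higher and 2 lower in the spleen. Over all genes tested, 21.0% were called higher and 19.5% lower in splenic than in thymic WT samples, so calls were common in this comparison. For *Cd44*, *Klrg1*, *Igf2r*, *Cd72* and *Ly6c1* the same splenic WT samples entered the comparison that selected the study's panel. Their p-values here are therefore not wholly free of that choice. *Klrg1* was higher in splenic WT by 3.12 ± 0.23 on the log2 scale (edgeR adjusted p = 7.27e-10), *Ly6c1* by 2.01 ± 0.20 (adjusted p = 5.20e-08), *Cd44* by 0.82 ± 0.13 (adjusted p = 2.50e-05) and *Ly6e* by 0.77 ± 0.05 (adjusted p = 2.37e-10). The lower pair were *Ly6c2*, at -2.08 ± 0.50 (adjusted p = 0.0017), and *Igf2r*, at -1.23 ± 0.06 (adjusted p = 1.86e-12). The near-identical *Ly6c1* and *Ly6c2* thus lay on opposite sides, *Ly6c1* higher and *Ly6c2* lower in splenic WT Tregs. *Cd72* did not pass the test (0.36 ± 0.13, adjusted p = 0.0285). *Ly6a* was 4.40-fold higher in splenic than in thymic WT samples, and *Igfbp4* differed by 0.78 ± 0.37 on the log2 scale, both as description. The WT groups of the 2 organs did not overlap for 8 of the 9 members (2 lower and 6 higher in the spleen), against 46.0% of all genes.

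Ordered by level per kb of exon, the 4 groups stood in the same order for *Cd44*, *Klrg1*, *Ly6a* and *Ly6e*, in another for both *Igfbp4* and *Cd72*, and in an order of their own for *Igf2r*, *Ly6c1* and *Ly6c2*. *Cd44* ran from splenic KO (40.2 ± 3.72 CPM per kb) through splenic WT (31.0 ± 1.12) to thymic WT (17.6 ± 1.80) and thymic KO (15.5 ± 3.94), where only the thymic neighbours overlapped. *Klrg1* ran in the same order with no overlap between neighbours, from 22.3 in splenic KO through 13.1 and 1.51 to 0.00652 CPM per kb in thymic KO samples. *Ly6a* also followed it, from 139.9 ± 12.8 through 73.7 ± 4.42 and 16.7 to 8.16 CPM per kb, again without overlap. These 3 members thus had their highest level in splenic KO and their lowest in thymic KO Tregs. *Ly6e* shared the order, at 265, 264, 155 and 119.6 CPM per kb, but its splenic groups overlapped. *Igf2r* ran nearly the other way, from thymic WT (87.1 ± 5.74) and thymic KO (85.4 ± 4.54), which overlapped, to splenic WT (37.0 ± 2.56) and splenic KO (23.8 ± 0.862). *Ly6c1* was highest in splenic WT (12.7) and then overlapped between neighbours from splenic KO (5.14) through thymic WT (3.14) to thymic KO (2.00), and *Cd72* likewise from splenic WT (4.12) to thymic WT (3.20), thymic KO (2.69) and splenic KO (2.42). For *Igfbp4* every pair of neighbours overlapped, from splenic WT (41.8 ± 7.95) through thymic WT (24.3 ± 15.2) and thymic KO (10.5 ± 4.87) to splenic KO (6.92 ± 1.03). *Ly6c2* stood at 2.35 in thymic KO, 1.14 in thymic WT, 0.421 in splenic KO and 0.268 CPM per kb in splenic WT samples, and of these neighbours only thymic WT and splenic KO did not overlap. Its exons in the annotation include a transcript with a retained intron, so its level per kb may be understated. Levels of the other members also divide by all annotated exons, and which transcripts the cells used was not determined.

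The members differed in how much samples of 1 group varied. *Ly6e* varied least, the highest sample of a group being 1.08 to 1.16 times the lowest, and *Igf2r* by 1.09 to 1.20 times. *Igfbp4* varied by 6.44 times among thymic WT and 3.79 times among thymic KO samples, against 1.52 and 1.35 times in splenic WT and KO samples. *Klrg1* varied by 5.15 times among thymic WT samples and *Ly6c2* by 10.6 times among thymic KO samples. The SE of the thymic log2 fold change was accordingly largest, among the 8 members with a usable fold change, for *Ly6c2* (0.47) and *Igfbp4* (0.44).

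**Figure D4:**
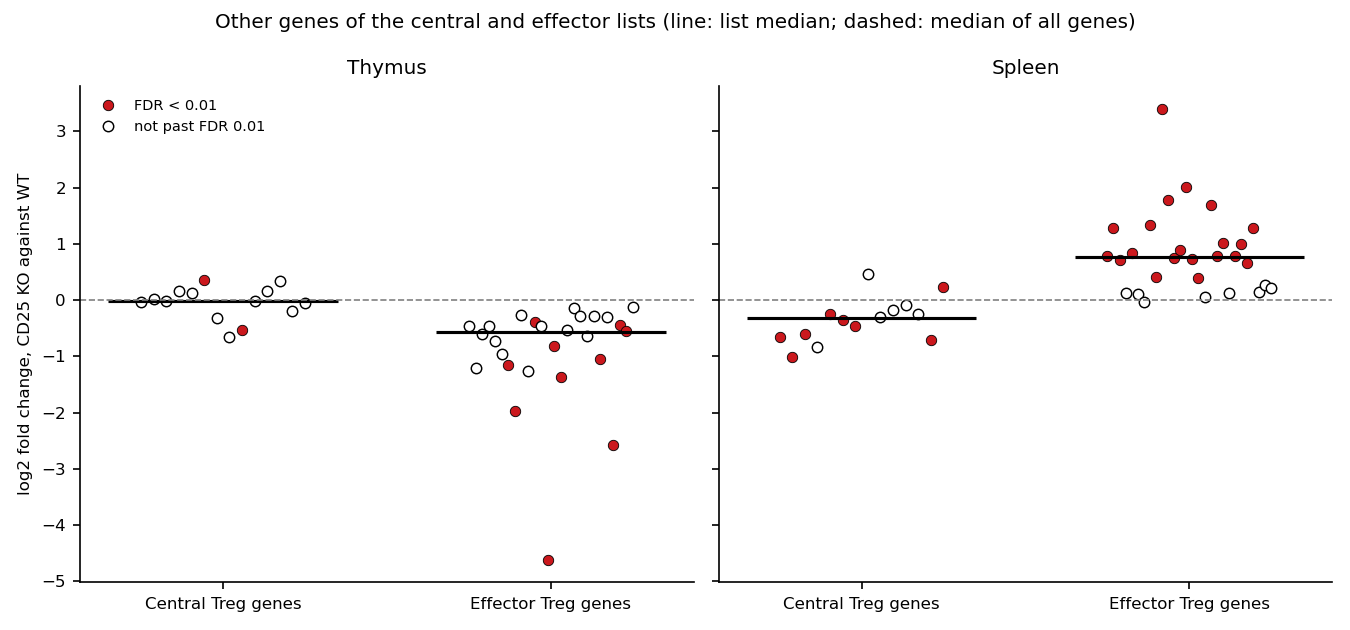
Log2 fold change between CD25 KO and WT of the other genes of the central and the effector Treg lists, in the thymus and the spleen, with filled points for genes past FDR < 0.01, a bar for the list median and a dashed line for the median of all genes. The effector genes lie below 0 in the thymus and, but for 1, above 0 in the spleen, and the central genes lie around 0 in the thymus.

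The genes listed with the members as cTreg or eTreg genes moved apart in the same 2 comparisons. Several of them (among them *Bcl2*, *Il6ra*, *Icos*, *Tigit*, *Irf4*, *Prdm1*, *Il10*, *Gzmb*, *Fgl2*, *Mki67*, *Ccr8*, *Il1rl1*, *Gata3*, *Id2* and *Runx2*) stand in the panel selected on these splenic samples, so the splenic counts are not independent evidence of a direction. The lists were also chosen with earlier results of these data known, so the thymic counts are a description as well. Over all genes tested, 2.99% were called lower and 3.17% higher in the thymus, and 3.55% and 5.90% in the spleen. Of 28 eTreg genes tested in the spleen, 20 were called higher and 0 lower, with a median of 0.77, led by *Gzmb*, a cytotoxic granule protease (3.41 ± 0.15), *Il10*, an inhibitory cytokine (2.02 ± 0.21), and *Havcr2*, which encodes the inhibitory receptor TIM-3 (1.77 ± 0.19). In the thymus 10 of 26 eTreg genes were called lower and 0 higher, with a median of -0.57, led by *Il1rl1*, the IL-33 receptor (-4.62 ± 0.52), *Tigit*, an inhibitory receptor (-2.58 ± 0.23), and *Fgl2* (-1.97 ± 0.32). All 26 had a negative thymic log2 fold change, and 27 of 28 a positive splenic one. The thymic count of 10 was 4 without KO sample 1, 5 without WT sample 2, 6 without WT sample 5 or KO sample 3, and 16 without KO samples 2 and 4. Among the cTreg genes tested in the spleen, 7 of 14 were called lower and 1 higher, with a median of -0.32. The lower ones included *Bcl2*, which opposes apoptosis (-1.01 ± 0.06), and *Bach2*, a repressor of effector genes (-0.65 ± 0.08). The higher one was *Tcf7* (0.24 ± 0.06), whose call was lost without any one of WT samples 1 to 4, KO sample 2 or KO sample 4. In the thymus 1 of 14 was called lower, *Klf2*, which drives homing genes (-0.53 ± 0.09), and 1 higher, *Foxp1* (0.36 ± 0.05), with a median of -0.01. The *Klf2* call was lost without WT sample 2, 3 or 5 or KO sample 3.

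Genes related to single members were also counted. The shares called over all genes tested were 2.99% lower and 3.17% higher in the thymus, and 3.55% and 5.90% in the spleen. Of the other *Ly6* family genes, 1 of 6 tested was called lower in the thymus, *Ly6k* (-1.29 ± 0.24), and 1 of 5 in the spleen, *Lynx1* (-0.84 ± 0.20), and 0 were called higher in either, with medians of 0.07 and -0.12. The *Ly6k* call was lost without WT sample 3 or 5 or KO sample 1, 2 or 3, and the *Lynx1* call without any one of samples 2, 3 and 4 of either genotype. Of 11 IGF axis genes tested in the thymus, 0 were called by edgeR, 1 by DESeq2, and 3 had an unadjusted p below 0.05, with a median of -0.12. In the spleen 4 were called higher and 0 lower, with a median of 0.19, among them *Stc2*, which encodes an inhibitor of the protease that cleaves IGFBP4 (1.29 ± 0.18), *Igf1r*, the main IGF receptor (0.32 ± 0.07), and *M6pr*, the other mannose-6-phosphate receptor (0.27 ± 0.06). This count was 2 without WT sample 2, KO sample 2 or KO sample 4, and 1 without WT sample 3 or 4. *Igf2r* and *Igfbp4* themselves lay on the other side of WT in the spleen.

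Interferon-stimulated genes were listed because several *Ly6* genes respond to interferon. Of all genes tested, 2.99% were called lower and 3.17% higher in the thymus, and 3.55% and 5.90% in the spleen. Of the 28 listed genes, 2 were called higher and 0 lower in the thymus, with a median of 0.05, among them *Ifit2* (0.40 ± 0.08). In the spleen 2 of 28 were called higher and 0 lower, with a median of 0.10, *Ifi27l2a* (0.41 ± 0.06) and *Oas1a* (0.38 ± 0.08). An unadjusted edgeR p below 0.05 was held by 13 in the spleen, 10 higher and 3 lower, and by 4 in the thymus, 2 higher and 2 lower. The thymic count of 2 was 0 without WT sample 2, WT sample 3 or KO sample 1 and 1 without WT sample 1, 4 or 5 or KO sample 2 or 3, and the splenic count of 2 was 1 without WT sample 3 or 4. Without splenic WT sample 4 or KO sample 1, 1 of these genes was called lower. Between the organs, 21 of the 28 were called lower and 1 higher in splenic than in thymic WT Tregs, with a median of -0.55. Over all genes tested, 19.5% were called lower and 21.0% higher there. *Oasl1* was lower (-2.18 ± 0.17) and *Oas1a* higher (2.12 ± 0.18). *Ly6a* and *Ly6e* lay on the higher side in that comparison, opposite to most of the list. Ligands and signalling partners of the members were also described as a list. In the thymus 1 of 14 was called higher, *Rdx*, which encodes a protein that links CD44 to the cytoskeleton (0.29 ± 0.06), and 0 lower, with a median of -0.19. That call was lost without any one of the WT samples or without KO sample 1, 2 or 3, and 1 gene was called lower without KO sample 5. In the spleen 5 of 15 were called higher and 0 lower, with a median of 0.01, led by *Plxnb2*, a semaphorin receptor (1.12 ± 0.19), the phosphatase gene *Ptpn11* (0.49 ± 0.06) and *Cd74* (0.40 ± 0.07), which is also a B cell marker. Without KO sample 1, 1 was called lower there.

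Genes with a pattern like that of a member were ranked by Pearson r of log2 CPM over the 18 samples among 11018 genes. The samples fall into 4 groups, the columns of each organ carry a date of their own, and the r values carry no test. *Cd44* was followed most closely by *Lgalsl* (r = 0.988), *Slc12a2* (0.982) and *Cpox* (0.978), and *Klrg1* by *Igsf9b* (0.987), *Ptpn5* (0.986) and *B4galt4* (0.983). *Igf2r* was closest to *Trpm1* (0.993), *Pla2g4f* (0.992) and *Gsta4* (0.992), *Ly6a* to *Mettl7a1* (0.991), *S100a11* (0.990) and *Ighm* (0.989), and *Ly6e* to *Fxyd5* (0.993), *H2-Q6* (0.992) and *Socs3* (0.989). *Ly6c1* was closest to *Pitpnc1* (0.974) and the ribosomal protein genes *Rpl12* (0.962) and *Rpl23* (0.960). *Ly6c2* was closest to *Plac8* (0.964), *Pltp* (0.953) and *Spib* (0.951), so that *Ly6c1* and *Ly6c2* shared none of their 3. The values were lower for *Igfbp4* (*Tbrg4*, 0.886; *Rpl10a*, 0.879; *Ifrd2*, 0.872) and for *Cd72* (*Dctd*, 0.816; *Cnksr3*, 0.814; *Tbrg4*, 0.812), which shared *Tbrg4*. No member was among the 3 closest genes of another.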

How the data were processed

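Tregs were sorted by fluorescent reporters and sequenced as paired reads of 75 bases after ribosomal RNA depletion. The splenic label, YFP from the R26 locus, is heritable once Cre has acted, so it marks cells by past as well as present Foxp3 expression. The authors deposited raw counts per gene, made per the study's methods by mapping to GRCm38 and counting over GENCODE M13 genes. The submitters' processing notes name STAR 2.5.0b and featureCounts 1.5.0. Strand and multi-mapping settings are not given in the sources used here. Of 50600 gene IDs, 50376 matched a symbol in GENCODE M21. Samples were grouped by tissue and genotype from the labels. Counts were tested in R 4.3.3 with edgeR 4.0.16 (quasi-likelihood test, TMM scaling, filterByExpr), within each tissue and, for differences between organs, in a single fit of 18 samples, with Benjamini-Hochberg adjustment over all genes tested and FDR < 0.01. The study itself used DESeq2, here an alternative (version 1.42.0). Fold changes have their SE. CPM used TMM over all samples, and levels per kb divide it by exonic length.

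The members and gene lists were chosen with earlier results of these data known. Of each list, up to 3 called genes per direction with the largest fold change and an average log2 CPM of at least 1 were named, and per member the 3 most correlated named genes above that level, except a few genes not reported here. Markers of 7 kinds of cells and lists of cTreg, eTreg, Ly6 family, IGF axis, interferon-stimulated and partner genes were summed or counted. Other alternatives were RLE and upper-quartile scaling, a minimum of 10 counts in every sample, no filter, FDR < 0.05, removal of the GC trend, a replicate block, 1 fit of all samples, and leaving out samples. *Klrg1* in the thymus and *Ly6c2* in the spleen rest on few counts, so counting error bears on them. Tests were tested on simulated data.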

Additional observations from a re-analysis of the deposited data

Results flagged for a closer look

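*Klrg1* in thymic KO Tregs had a highest sample of 0.0461 CPM that stood apart from the other 4, all at 0. It is a single count. Of 36 combinations of a member and a group examined in this way, 1 stood out, and chance alone gives about 1 in 20.

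The KO effect on *Ly6e* differed between the organs by 0.38 on the log2 scale, spleen minus thymus (edgeR adjusted p = 0.00222). It was lower in 5 of 5 thymic KO samples than in any WT sample, while the splenic groups overlapped.

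*Klrg1* was 0.77 higher on the log2 scale in splenic KO than in WT Tregs, with every KO sample above every WT sample, and in the thymus every KO sample was below every WT sample. This difference between organs was not tested.

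*Ly6a* was 0.93 higher on the log2 scale in splenic KO Tregs and -1.02 in the thymus, again with no overlap in either organ. This difference between organs was not tested.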

How the results depend on the processing

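Of 411 tested values recomputed under other settings, 393 kept direction and side of the threshold, 11 reversed, 3 gained and 4 lost the call; of 387 untested values, 384 moved by less than the spread and 3 by more. The thymic count of 2 called members became 1 with at least 10 counts in every sample (which removes *Klrg1*), with the GC trend removed, with a replicate block, and with the replicate block and GC trend together. The interaction count of 1 became 0 with the GC trend removed. Thymic *Ly6e* was -0.22 with the GC trend removed (adjusted p = 0.0276), -0.35 with the block (0.0161) and -0.22 with both (0.0856). *Igf2r* in the thymus reversed to 0.0237 under upper-quartile scaling, 0.0736 with the GC trend removed and 0.0737 with block and GC, and ran from -0.0436 to 0.0203 leaving out each sample. *Ly6e* in the spleen reversed to -0.0223 under upper-quartile scaling and ran from -0.0157 to 0.0345 leaving out each sample. The cause was not tested. Thymic *Klrg1* had adjusted p from 1.15e-10 (DESeq2) to 0.00283 (edgeR) over the alternatives that kept it. It passed the filter on low counts only through its WT samples, so a call could only be a lower one. The range of p-values is therefore not independent support for that direction.

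Genes called in the thymus numbered 1047 in the reported fit, 2763 with DESeq2, 3951 at FDR < 0.05, 2881 in 1 fit of 18 samples, 2008 without KO samples 2 and 4, 209 with the block and 197 with block and GC. In the spleen 1651 became 3001 at FDR < 0.05 and 795 in 1 fit, and for the interaction 1305 became 2188 with DESeq2 and 3149 at FDR < 0.05. Upper-quartile scaling gave 440 lower and 808 higher thymic genes against 508 and 539, and 669 and 616 for the interaction against 465 and 840. Same-numbered thymic WT and KO samples deviated together with r of 0.144, 0.034, -0.067, -0.238 and -0.048, and only sample 1 correlated best with its own number, so the numbers are not a pairing; in the thymus the block changed no call of a member but that of *Ly6e*. Depth limits thymic *Klrg1* and splenic *Ly6c2*.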
